A study of Mus musculus with 21 samples.

Results

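Interleukin-2 (IL-2) is the cytokine that drives expansion of activated CD8 T cells, and IL-2v is a mutant form of it. The data compared here are single-cell RNA profiles of OT1 CD8 T cells, T cells of a mouse line whose transgenic receptor recognises an ovalbumin peptide, after 10 days of culture. Both cultures started from naive cells activated on day 0 with beads coated with antibodies to CD3 and CD28, and both received cytokine at 50 IU/mL. The 1 library labelled mutant IL-2bg (called IL-2v here) held 5090 cells, and the 1 library with wild-type IL-2 held 4937, together 10027 of the 106456 cells kept in the 21 libraries of the series. All cells of both libraries were taken. The treatment label of the IL-2 library names Interleukin-3. The sample title, which codes IL-2, was followed, and the titles also give the day. The labels describe a sort of CD44+CD45.1+CD8+ tumour-infiltrating cells in the extraction text, whereas the growth text describes culture, and they name neither the amino acid changes of IL-2v nor separate cultures per library.

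IL-2 signals through a receptor of alpha, beta and gamma chains (Il2ra, Il2rb, Il2rg), the kinases JAK1 and JAK3 and the transcription factor STAT5. In CD8 T cells strong and lasting signalling is known for promoting effector differentiation, with granzymes and perforin stored in cytotoxic granules, and for sustaining Il2ra itself. Cells that keep memory or stem-like features are known for Tcf7, Il7r and Ccr7. Metallothioneins bind zinc and are induced when free zinc rises.

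The IL-2v library held 27293158 unique molecular identifiers (UMIs, each standing for 1 captured transcript) and the IL-2 library 27274115, with medians of 4926 and 5065 UMIs per cell and of 1657 and 1667 genes per cell. Mitochondrially encoded genes took 4.85% of UMIs in IL-2v and 3.83% in IL-2, and cytosolic ribosomal protein genes 36.2% and 32.9%. The libraries shared 5 cell barcodes. Cd3d, a chain of the T cell receptor complex, stood at 1087 and 1162 counts per 1000000 UMIs (CPM), and Cd8b1 at 284 and 174 CPM. Cd4 had 2 UMIs in each library. Each condition had 1 library, so no difference has a replicate check, no test was run and no p-value is given. Intervals are exact 95% Poisson intervals for CPM and exact (Clopper-Pearson) 95% binomial intervals for shares of cells, and they cover counting error only. A lower summed level can mean fewer cells with a transcript or less of it per cell, and shares of cells are given where they bear on this.

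Genes with at least 20 CPM in either library were compared as the difference in log2(CPM + 1), IL-2v minus IL-2, which understates the change of low genes. Of 5227 such genes, 145 (2.77%) lay 2-fold or more above their IL-2 level in IL-2v and 113 (2.16%) lay 2-fold or more below it. The median difference was 0.06, with quartiles of -0.17 and 0.29, and 56.9% of the genes lay above 0. Scaling by TMM, which equalises the bulk of genes, moved that median to -0.04, a shift of -0.10, and gave 116 higher and 137 lower genes. The higher genes thus made up 56.2% of those past 2-fold by library totals and 45.8% by TMM. With totals that left out ribosomal protein and mitochondrially encoded genes the median was 0.18, a shift of 0.12, and the higher genes made up 68.7%. A difference or list median as near 0 as these shifts has no settled direction, and none is stated for it below. The 2 libraries were each other's nearest among all 21, with a root mean square log2 difference of 0.486 over 5495 genes, against 0.692 from IL-2v and 0.915 from IL-2 to the next library, IL-2 at 5 IU/mL on day 10.

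**Figure D1:**
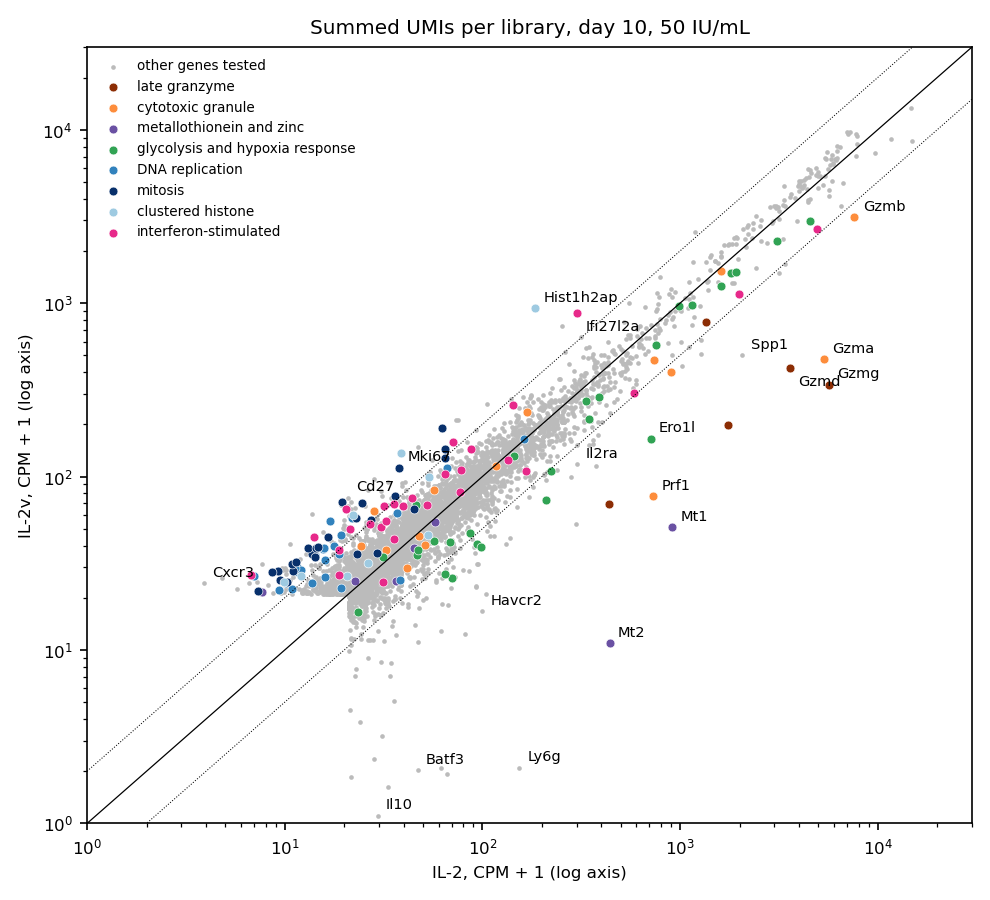
Level of each of the 5227 genes tested in the IL-2 library (x axis) and the IL-2v library (y axis), as CPM + 1 on log axes, with colours for 8 gene lists. The solid line marks equal levels and the dotted lines 2-fold differences. Gzmd, Gzmg, Gzma, Gzmb, Prf1, Mt1, Mt2 and Ly6g lie below the lower dotted line, and most replication and mitosis genes lie above the upper one.

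The largest group difference was in the late granzymes, serine proteases of cytotoxic granules encoded side by side on mouse chromosome 14 and known for appearing late in strongly stimulated T cells. All 5 tested members of the 6 listed were lower in IL-2v, 4 of them at least 2-fold, and their median difference was -3.08 against 0.06 for all genes tested. Gzmg stood at 338 CPM (331 to 345) in IL-2v and 5667 CPM (5639 to 5695) in IL-2. Gzmd stood at 424 CPM (417 to 432) and 3602 CPM (3580 to 3625). These genes were thus abundant in the IL-2 library, where granzymes A to G took 2.58% of all UMIs, against 0.542% in IL-2v. Gzme stood at 199 and 1752 CPM, and Gzmf at 68.5 and 438 CPM. Gzmc, the least shifted, stood at 773 and 1353 CPM, a difference of -0.81. Gzmn, under the level needed to be tested, had 14 and 221 UMIs. The transcripts of these paralogs share sequence: 20.6% of the runs of 50 bases in the last 500 bases of Gzmd transcripts also occur in another gene, as do 18.2% for Gzme, 14.4% for Gzmg and 7.10% for Gzmf. How the counting split such reads was not tested, so the values of single late granzymes are less certain than their sum.

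The 250 bases before the start sites of 5 of these genes are shown because the genes that differed together are copies that also resemble each other there. Capitals mark the longest run found in all 5, a stretch of 20 bases, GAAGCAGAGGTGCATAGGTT, searched on both strands. Sequences are from RefSeq on GRCm38.p6, and all 5 windows lie on the minus strand, at chr14:56132594-56132843 for Gzmd, chr14:56120626-56120875 for Gzme, chr14:56211408-56211657 for Gzmf, chr14:56159580-56159829 for Gzmg and chr14:56234658-56234907 for Gzmc.
Gzmd: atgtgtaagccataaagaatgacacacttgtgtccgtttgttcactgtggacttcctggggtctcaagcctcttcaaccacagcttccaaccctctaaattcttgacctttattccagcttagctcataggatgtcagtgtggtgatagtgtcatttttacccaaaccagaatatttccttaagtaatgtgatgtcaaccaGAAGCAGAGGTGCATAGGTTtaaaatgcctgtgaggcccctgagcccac
Gzme: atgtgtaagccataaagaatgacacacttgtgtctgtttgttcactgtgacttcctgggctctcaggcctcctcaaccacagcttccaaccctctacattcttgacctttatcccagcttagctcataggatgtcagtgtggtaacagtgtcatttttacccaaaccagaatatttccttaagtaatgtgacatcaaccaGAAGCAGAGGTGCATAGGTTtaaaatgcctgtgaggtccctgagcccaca
Gzmf: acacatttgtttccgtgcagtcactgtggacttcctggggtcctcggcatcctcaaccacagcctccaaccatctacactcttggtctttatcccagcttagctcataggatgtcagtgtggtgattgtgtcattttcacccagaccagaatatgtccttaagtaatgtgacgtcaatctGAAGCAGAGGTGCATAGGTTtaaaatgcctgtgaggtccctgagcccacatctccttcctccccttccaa
Gzmg: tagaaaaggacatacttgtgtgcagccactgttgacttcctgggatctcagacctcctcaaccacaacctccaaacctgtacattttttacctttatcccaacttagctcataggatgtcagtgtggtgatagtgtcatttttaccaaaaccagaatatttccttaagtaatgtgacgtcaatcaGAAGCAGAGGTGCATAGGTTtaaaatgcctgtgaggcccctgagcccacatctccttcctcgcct
Gzmc: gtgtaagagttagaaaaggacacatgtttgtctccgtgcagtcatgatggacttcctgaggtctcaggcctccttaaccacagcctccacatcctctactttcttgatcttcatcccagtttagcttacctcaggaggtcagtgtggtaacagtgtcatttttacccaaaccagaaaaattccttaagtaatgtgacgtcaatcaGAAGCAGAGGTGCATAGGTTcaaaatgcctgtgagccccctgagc
The run occurred in 5 of 32536 distinct promoter windows of the same length (0.0154%), which were those of these 5 genes. It was not in the windows of Gzmb, Gzma, Gzmn or Prf1. The letters TTCNNNGAA, a pattern that STAT5 is known to bind, occurred in 7.04% of all windows and in none of these 5. A match or its absence here is a description of these letters only.

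The late granzymes were not spread evenly over cells. After each cell was thinned to 2000 UMIs, which left 4948 IL-2v and 4693 IL-2 cells, 25.7% (24.5 to 27.0) of IL-2v cells and 71.5% (70.2 to 72.8) of IL-2 cells had at least 1 late granzyme UMI. At least 20 such UMIs were found in 4.002% (3.47 to 4.59) and 27.8% (26.5 to 29.1), and at least 100 in 0.222% and 5.26%. Both libraries therefore held strongly positive cells, at different shares. Without thinning, 34.5% of IL-2v cells and 81.4% of IL-2 cells were positive. The cultures hold no cell type that should lack these genes, so the share that free RNA gives was not measured within them, for these or other genes. In libraries of their own, naive cells had 0.0671% positive and IL-15 cells at 50 IU/mL on day 10 had 0.0621%. Within the IL-2 library log(count + 1) of Gzmd and Gzme per thinned cell had a Pearson correlation of 0.87 over 4693 cells. In IL-2v it was 0.84 over 4948 cells. This describes cells that share a library and genes that share sequence. The median UMI count was 5978 in positive and 4485 in negative IL-2v cells, and 5452 and 3688 in IL-2 cells.

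**Figure D2:**
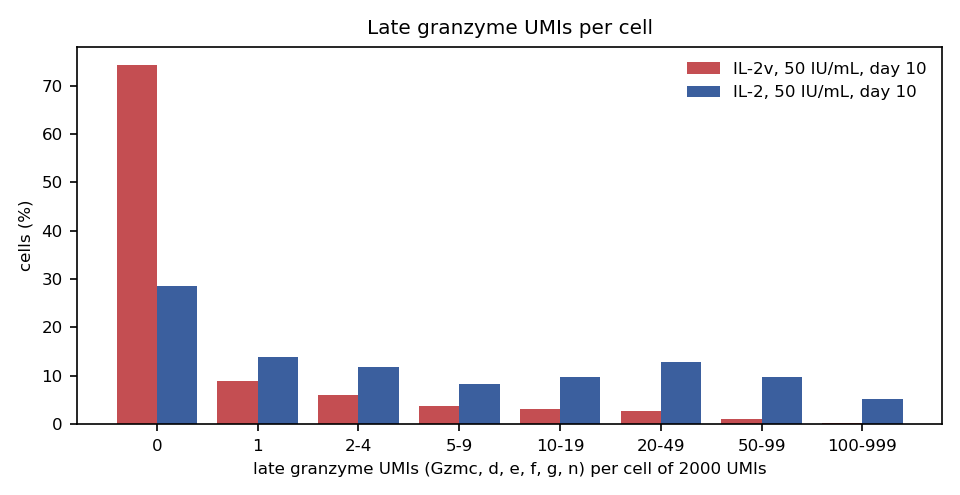
Share of cells (y axis, percent) by the number of late granzyme UMIs per cell after thinning to 2000 UMIs (x axis, bins) in the IL-2v library (red, 4948 cells) and the IL-2 library (blue, 4693 cells). Bars at 0 stand at 74.3% for IL-2v and 28.5% for IL-2, and in every bin from 1 UMI upward the IL-2 bar is the taller.

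Other cytotoxic granule genes did not move as a block. Of 17 listed, 15 were tested, 4 were at least 2-fold lower in IL-2v and 1 was higher, with a median difference of -0.07. Gzma, a granzyme encoded on chromosome 13 (chr13:113093825-113100981), stood at 475 CPM (467 to 483) and 5352 CPM (5325 to 5380), a difference of -3.49. Prf1 (perforin, which opens the target cell membrane; chr10:61297833-61304680) stood at 76.5 and 732 CPM, a difference of -3.24. Gzmb, the main granzyme of effector cells, stood at 3143 and 7618 CPM, and the protease Ctsd at 401 and 900 CPM. For Gzmb the difference lay in the amount per cell, since 94.1% of IL-2v and 98.96% of IL-2 cells of 2000 UMIs had a UMI of it, with means of 5.72 and 14.3 UMIs per cell. For Gzma the shares also differed, at 19.7% and 76.7%, and for Prf1 at 10.1% and 49.0%. Nkg7 (1529 and 1609 CPM) and Cst7 (114 and 117 CPM) were close to equal. Lyst, a regulator of lysosome size, was higher in IL-2v, at 62.6 and 27.3 CPM. Of 6 tested serpins, inhibitors of such proteases, 1 lay above 0, against 56.9% of all genes tested. The 2 at least 2-fold lower in IL-2v were Serpinb1a (43.5 and 137 CPM) and Serpinb6a (85.6 and 178 CPM).

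The metallothioneins Mt1 and Mt2 were far lower in IL-2v. Mt1 stood at 50.2 CPM (47.6 to 53.0) in IL-2v and 908 CPM (897 to 919) in IL-2, a ratio of 18.1 (17.1 to 19.1). Mt2 stood at 9.93 CPM (8.78 to 11.2) and 439 CPM (431 to 447), a ratio of 44.2 (39.2 to 50.1). Exons of Gm45774 on the other strand cover 73.5% of the exonic bases of Mt2, and whether counting used strand is not given in the sources used here, so Mt2 is less certain than Mt1. The share of cells with a UMI also differed: an Mt1 UMI was found in 67.3% (65.9 to 68.6) of IL-2 cells and 8.59% (7.82 to 9.40) of IL-2v cells of 2000 UMIs, against 4.13% of IL-15 cells at 50 IU/mL on day 10, in a library of their own. The share that free RNA gives within the IL-2 library, where Mt1 was abundant, was not measured. The zinc importer Slc39a10 went the other way, at 20.7 CPM in IL-2v and 6.64 CPM in IL-2. Of 14 listed metallothionein and zinc genes 7 were tested, and these 3 were the ones past 2-fold. The metallothionein gap was present in cells with and without late granzymes. In the IL-2 library Mt1 or Mt2 was found in 79.0% of late granzyme positive and 69.2% of negative cells, and in IL-2v in 13.6% and 8.30%. Among cells without a late granzyme UMI, a split added after seeing the data, the difference for Mt1 was -4.12 (40.2 and 715 CPM), against -4.15 in all cells.

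The promoters of Mt1 and Mt2, which lie next to each other on chromosome 8, are shown because metallothionein genes are known for metal response elements. Capitals mark matches to TGCNCNC on either strand, a pattern looser than the core of that element, so a match need not be a core. The windows are the 250 bases before the RefSeq start sites (GRCm38.p6, plus strand, chr8:94178839-94179088 for Mt1 and chr8:94172368-94172617 for Mt2).
Mt1: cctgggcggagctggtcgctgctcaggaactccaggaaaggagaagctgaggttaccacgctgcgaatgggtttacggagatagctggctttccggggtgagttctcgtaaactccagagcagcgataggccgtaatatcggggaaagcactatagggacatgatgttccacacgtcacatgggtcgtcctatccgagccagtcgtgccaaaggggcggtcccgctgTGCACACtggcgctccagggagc
Mt2: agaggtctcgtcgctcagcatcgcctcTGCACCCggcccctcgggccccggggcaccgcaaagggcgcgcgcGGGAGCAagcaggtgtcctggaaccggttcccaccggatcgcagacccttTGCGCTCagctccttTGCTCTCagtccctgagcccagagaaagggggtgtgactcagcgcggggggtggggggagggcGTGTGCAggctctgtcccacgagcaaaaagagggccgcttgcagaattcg
The Mt1 window holds 1 match, and 44.7% of 32536 distinct windows hold at least 1. The Mt2 window holds 5, a number reached by 0.347% of windows. The start sites are those of RefSeq and differ from the gene starts of GENCODE vM21 (94179082 for Mt1 and 94172664 for Mt2). The windows are thus not placed alike relative to those gene starts. The main start of transcription was not located and can differ from both annotations, and matches beyond a window were not counted. The counts for Mt1 and Mt2 can therefore not be compared, and they do not give the number of elements in either promoter.

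A small set of genes, named here, stood at 28.6 to 152 CPM in the IL-2 library and at 2.20 CPM or less in IL-2v. Ly6g, a surface protein known from neutrophils (chr15:75155240-75159126), stood at 1.10 CPM (0.742 to 1.57) in IL-2v and 152 CPM (148 to 157) in IL-2. In the other 19 libraries it did not exceed 1.07 CPM. Its UMIs were in 14.9% of IL-2 cells and 0.222% of IL-2v cells of 2000 UMIs. Of the IL-2 cells with Ly6g, 92.0% (89.7 to 93.9) also had Cd3d, against 87.8% (86.7 to 88.8) of those without it. Csf3r, a defining receptor of neutrophils, had 0 UMIs in both libraries. By a 1-sided limit of 3 UMIs for a count of 0, unlike the intervals elsewhere, this allows up to 0.110 CPM. The cystatins Csta2 and Cstdc4 stood at 0.916 and 1.10 CPM in IL-2v and at 64.8 and 61.0 CPM in IL-2. Shared sequence was not checked for these 2 genes, so each is less certain as a single gene. Both kinds of cell were set beside the late granzymes: 92.3% of IL-2 cells with Csta2 or Cstdc4 had a late granzyme UMI, against 69.5% of those without, whereas the shares for Ly6g were 72.2% and 71.4%. Among listed genes, Il10, an anti-inflammatory cytokine, stood at 0.110 CPM in IL-2v (3 UMIs) and 28.6 CPM in IL-2 (779 UMIs). The ratio was 260, with a counting interval of 88.6 to 1263. Il24 stood at 0.623 and 32.3 CPM, and the transcription factor Batf3 at 1.03 and 46.0 CPM. Tnfrsf8 (CD30, a TNF receptor) stood at 2.20 and 29.99 CPM.

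**Figure D3:**
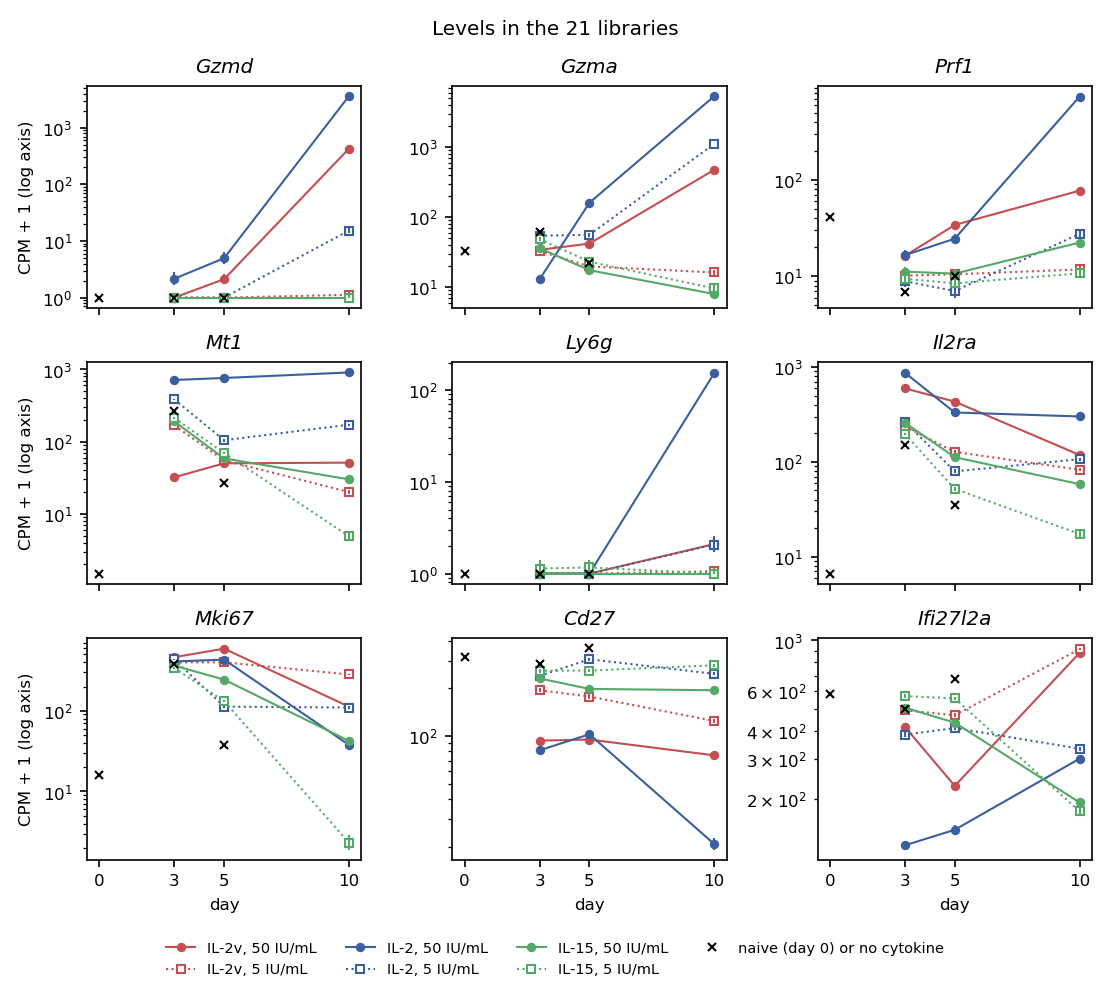
Levels of 9 genes by day (x axis) in the 21 libraries, as CPM + 1 on log axes that differ between panels, with exact 95% Poisson intervals as vertical bars. Lines join the libraries of 1 cytokine and dose, filled circles are 50 IU/mL and open squares 5 IU/mL. On day 10 the IL-2 library at 50 IU/mL is the highest of all for Gzmd, Gzma, Prf1, Mt1 and Ly6g.

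Among the tested receptor, JAK and STAT genes the receptor alpha chain differed most. Il2ra stood at 117 CPM (113 to 121) in IL-2v and 300 CPM (293 to 306) in IL-2, a difference of -1.35, and was the 1 of 8 tested receptor, JAK and STAT genes past 2-fold. Il2rb stood at 453 and 536 CPM, Il2rg at 161 and 163 CPM, Jak1 at 204 and 192 CPM and Jak3 at 40.8 and 55.5 CPM. Of 11 tested known STAT5 targets and feedback genes 2 lay above 0, against 56.9% of all genes tested. Their median was -0.27, against 0.06. Cish stood at 150 and 163 CPM, Socs2 at 53.4 and 69.1 CPM and Pim1 at 235 and 283 CPM. The 1 member past 2-fold was Myc, at 67.0 CPM in IL-2v and 24.4 CPM in IL-2. Of all genes tested 2.77% were 2-fold higher and 2.16% lower. At 5 IU/mL on day 10, 5 of 12 tested members were 2-fold lower and none higher, against 7.74% and 6.78% of all genes. At 5 IU/mL on day 5, 5 of 10 were 2-fold higher and none lower, against 7.29% and 1.02%. Myc drives growth and entry into the cell cycle. Il7r, the IL-7 receptor alpha chain, stood at 2.82 CPM (2.23 to 3.53) in IL-2v and 23.1 CPM (21.4 to 25.01) in IL-2, a difference of -2.66, against 446 CPM in naive cells.

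Genes of DNA replication and mitosis were the main group above 2-fold in IL-2v. Of 24 tested replication genes 16 were at least 2-fold higher and none lower (median difference 1.24), and of 27 tested mitosis genes 23 were higher and none lower (median 1.42). Together with 5 of 9 tested clustered histone genes they made up 44 of the 145 higher genes and 0 of the 113 lower ones. Mki67, a marker of cycling cells, stood at 112 CPM (108 to 116) and 36.8 CPM (34.6 to 39.2). Top2a, which untangles DNA in mitosis, stood at 190 and 61.7 CPM, and Cenpf, a kinetochore protein, at 70.6 and 18.4 CPM. The helicase subunits Mcm3 (54.3 and 15.9 CPM) and Mcm6 (56.7 and 21.01 CPM) were in the same direction. Hist1h2ap, a histone H2A gene, stood at 931 and 183 CPM, but 93.1% of its runs of 50 bases also occur in another gene, so the value belongs to the group of copies. Of 12 tested regulators of the cycle's start, D cyclins, CDKs and CDK inhibitors, 3 were lower in IL-2v and none higher, namely Cdkn1a (152 and 361 CPM), Cdkn2b (24.9 and 61.7 CPM) and Gadd45g (161 and 361 CPM).

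Counted by cells, a Mki67 or Top2a UMI was found in 17.4% (16.4 to 18.5) of IL-2v cells and 8.54% (7.76 to 9.38) of IL-2 cells of 2000 UMIs, and in 25.01% and 13.4% without thinning. Naive cells had 1.83% at the same depth and IL-15 cells at 50 IU/mL on day 10 had 7.49%. A looser rule, at least 3 UMIs of the replication and mitosis lists, gave 42.9% and 26.4%, but also 41.4% of naive cells. The late granzyme positive share was compared with cycling in both libraries and stood at 19.0% (16.5 to 21.8) of cycling and 27.1% (25.8 to 28.5) of other IL-2v cells, and 62.6% (57.7 to 67.3) and 72.3% (71.0 to 73.7) in IL-2. Among the cells with neither transcript, 3817 in IL-2v and 4277 in IL-2, Mcm6 still differed by 1.46 (40.6 and 14.2 CPM), while Hist1h2ap differed by 0.37 (38.1 and 29.3 CPM).

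Of 11 tested quiescence and stemness genes 7 lay above 0, against 56.9% of all genes tested. Klf2, a transcription factor for S1pr1, stood at 20.3 and 8.54 CPM. It was among the 2 of 11 tested members 2-fold higher, none was 2-fold lower, and the list's median was 0.42. Lef1 stood at 94.6 and 70.7 CPM and Satb1 at 248 and 153 CPM. Several defining members lay under the 20 CPM needed to be tested: Tcf7 stood at 17.1 and 2.38 CPM, Ccr7 at 15.7 and 2.68 CPM, S1pr1 at 12.02 and 1.87 CPM and Dapl1 at 15.8 and 0.587 CPM. A Tcf7 UMI was found in 3.76% (3.25 to 4.33) of IL-2v and 0.618% (0.414 to 0.886) of IL-2 cells of 2000 UMIs. The costimulatory receptor Cd27, known from naive and memory cells, stood at 74.5 and 19.8 CPM, and the chemokine receptor Cxcr3 at 23.3 and 2.90 CPM. Both had the opposite direction at 5 IU/mL on day 10, with Cd27 at 123 CPM in IL-2v and 246 CPM in IL-2 and Cxcr3 at 60.9 and 135 CPM, and the median of the quiescence and stemness genes was -0.25, against -0.15 for all genes tested. Not all such genes shared the direction. Il7r, a memory marker on another list, was the opposite, at 2.82 and 23.1 CPM, and Btg1 stood at 164 and 277 CPM.

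Both inhibitory receptors past 2-fold were lower in IL-2v, and such receptors are known from exhausted and effector cells. Havcr2 (TIM-3) stood at 15.7 CPM (14.2 to 17.2) and 98.3 CPM (94.6 to 102) and Lilrb4a at 51.1 and 109 CPM, 2 of 8 tested members, with none 2-fold higher and a median of -0.78. Lilrb4a shares 57.5% of its runs of 50 bases with other genes and is uncertain as a single gene. Cd160 stood at 46.5 and 28.7 CPM. Pdcd1 (PD-1) was at 0.550 and 4.51 CPM, under the level tested. Of 8 tested costimulatory receptors 2 were lower (Tnfrsf8 and Icos, the latter at 27.7 and 78.4 CPM) and 1 higher (Cd27). Tnfrsf9 (4-1BB) stood at 556 and 1112 CPM. The secreted protein Spp1 (osteopontin) stood at 501 CPM (493 to 510) and 2064 CPM (2047 to 2081), and its UMIs were in 24.7% and 61.4% of cells of 2000 UMIs. Of 15 tested effector and memory transcription factors 2 were lower, Batf3 and Maf (22.1 and 91.6 CPM), and 1 higher, Ikzf3 (21.3 and 9.20 CPM), with a median of -0.49. The killer lectin-like receptors went the other way, with Klrd1 at 263 and 104 CPM, Klrk1 at 91.5 and 32.3 CPM, and 2 of 3 tested members past 2-fold.

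Glycolysis and hypoxia response genes were mostly lower in IL-2v: 25 of 27 tested members lay below 0 by library totals, 7 of them at least 2-fold, and the median was -0.43 against 0.06 for all genes. The 7 were Ero1l (164 and 708 CPM), Bnip3 (72.1 and 208 CPM), Slc16a3, Ndrg1, Egln3, Hilpda and the glucose transporter Slc2a3 (107 and 222 CPM). None of the 7 encodes an enzyme of the glycolytic steps. Slc2a3 and the lactate exporter Slc16a3 are transporters, and the others are known from the response to low oxygen. The glycolytic enzymes differed less, with Gapdh at 2959 and 4533 CPM, Ldha at 1256 and 1615 CPM and Eno1 at 965 and 988 CPM. Neither nuclear oxidative phosphorylation genes (77 tested, median -0.10) nor sterol synthesis genes (20 tested, median 0.00) had a member past 2-fold. Among all genes tested 2.77% were 2-fold higher and 2.16% lower. No ribosome biogenesis gene was past 2-fold either, but 29 of 30 tested lay above 0 (median 0.32), against 56.9% of all genes tested.

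Interferon-stimulated genes split by member. Of 28 tested, 8 were at least 2-fold higher in IL-2v and none lower, with a median of 0.74. Ifi27l2a stood at 880 CPM (869 to 891) and 299 CPM (293 to 306), Isg15 at 157 and 70.4 CPM, Ifit1 at 26.0 and 5.72 CPM and Rtp4 at 43.7 and 13.1 CPM. The 3 IFITM genes, which block viral entry, went the other way: Ifitm1 stood at 2669 and 4950 CPM, Ifitm2 at 1131 and 1992 CPM and Ifitm3 at 301 and 587 CPM. The summed level of the list was for that reason lower in IL-2v, at 6944 against 9117 CPM, while its median was higher. Class I presentation genes had a median of 0.41 and GIMAP GTPases, known from lymphocyte survival, of 0.61. Past 2-fold were 0 of 18 and 1 of 8 (Gimap7), against 2.77% higher and 2.16% lower among all genes tested. Ifi27l2a depended on the cells compared: it differed by 0.61 among cells without a late granzyme UMI (1123 and 735 CPM) and by 1.55 in all cells.

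**Figure D4:**
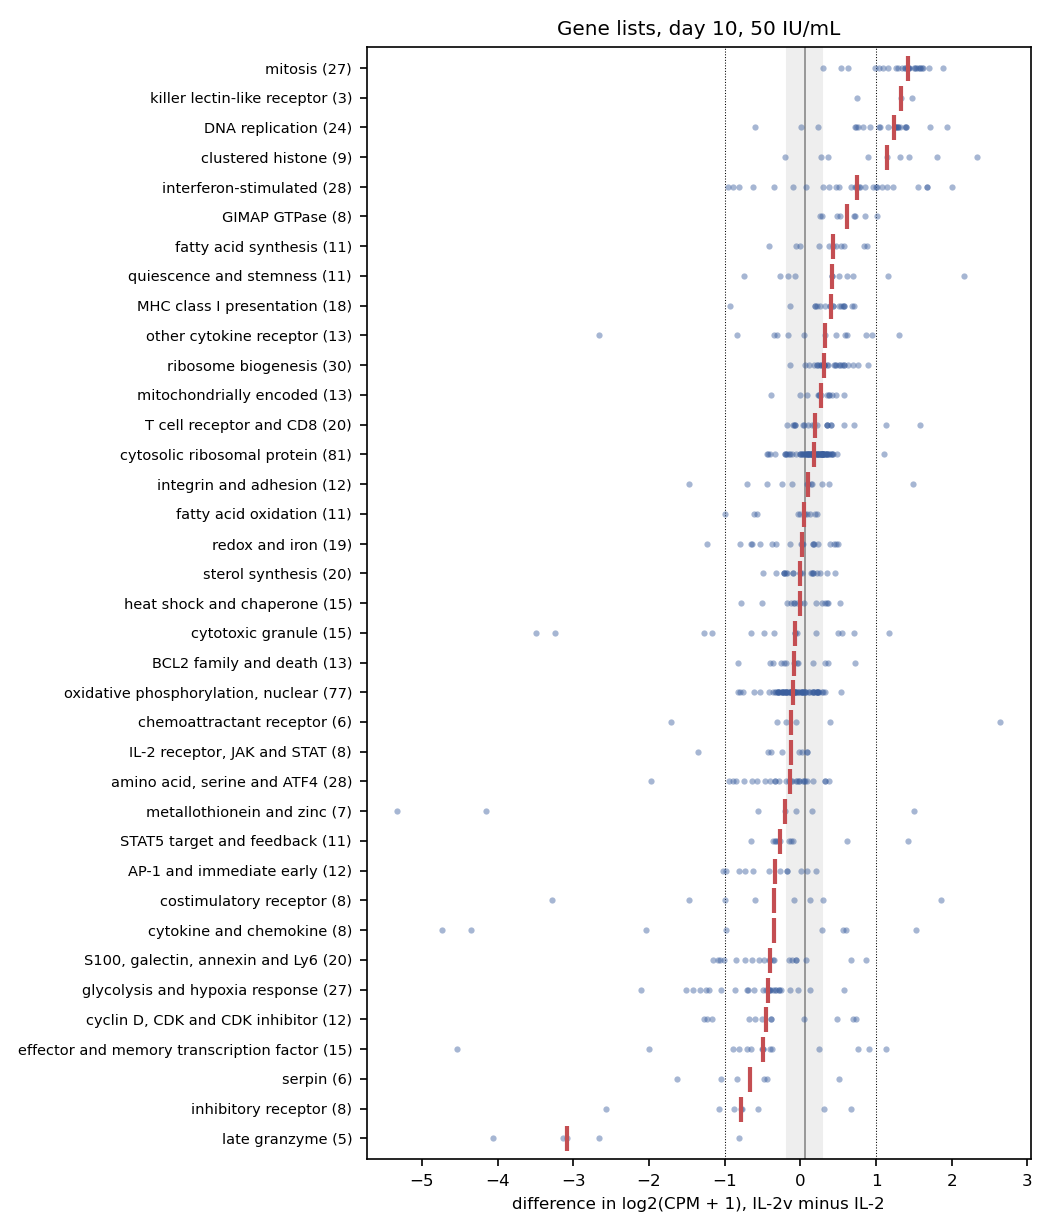
Difference in log2(CPM + 1), IL-2v minus IL-2 (x axis), of the tested members (blue points) and their median (red bar) for each gene list with at least 3 tested members, with the number tested in brackets. The grey line and band are the median (0.06) and quartiles of all 5227 genes tested and dotted lines mark 2-fold. Late granzymes stand lowest (median -3.08) and mitosis genes highest (1.42).

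Of 20 tested S100, galectin, annexin and Ly6 genes 4 were 2-fold lower in IL-2v and none higher, among them Lgals3 (galectin-3, 1486 and 3156 CPM) and Ly6a (Sca-1, 614 and 1277 CPM). Of 20 tested T cell receptor and CD8 genes 2 were higher and none lower, namely the inhibitory co-receptors Cd5 (28.9 and 9.02 CPM) and Cd6 (42.9 and 19.1 CPM). Ltb4r1, the leukotriene B4 receptor, stood at 114 and 375 CPM and was lower in IL-2v. Of 12 tested integrin and adhesion genes 1 was 2-fold lower, the integrin chain Itgav (25.4 and 72.0 CPM), and 1 was 2-fold higher, the activating receptor Cd226 (32.4 and 10.96 CPM). The ferritin gene Ftl1 stood at 433 and 1022 CPM, but 74.0% of its runs of 50 bases occur in other genes. Nupr1, a stress-induced nuclear protein, stood at 22.5 and 91.6 CPM and was the 1 of 28 tested amino acid, serine and ATF4 genes past 2-fold. No BCL2 family, heat shock or fatty acid synthesis gene tested (13, 15 and 11) was past 2-fold.

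Among the 15 highest and 15 lowest differences at 50 CPM or more, Tespa1, a T cell signalling adaptor, stood at 67.6 and 18.3 CPM, Stmn1, a microtubule regulator of dividing cells, at 148 and 46.3 CPM, and H2afx, a histone of the DNA damage response, at 70.6 and 20.7 CPM. Ifi203 stood at 64.4 and 19.5 CPM, Gm8369 at 66.4 and 19.9 CPM and BE692007 at 83.1 and 25.2 CPM. On the lower side Basp1, a membrane-bound signalling protein, stood at 52.4 and 295 CPM and Fam20a at 20.2 and 104 CPM. Gm10260 (134 and 37.3 CPM), Hist1h2ae (135 and 37.9 CPM) and Gm12840 (11.3 and 80.6 CPM) share 58.5%, 56.1% and 45.01% of their runs of 50 bases with other genes and are uncertain as single genes. The shared part is smaller for Stmn1 (23.2%) and Bnip3 (20.7%), and exons of Gm49369 on the same strand cover 34.4% of the exonic bases of Ctsd.

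Markers of other cell types were detected unevenly. The B cell gene Ighm stood at 95.9 and 27.4 CPM, with a UMI in 17.4% of IL-2v and 5.88% of IL-2 cells of 2000 UMIs and 48.9% of naive cells, but Ms4a1 had 0 UMIs in both libraries, and the summed level of the 9 B cell markers was 98.1 and 30.1 CPM against 414 CPM in naive cells. The 9 myeloid markers summed to 59.9 and 150 CPM, of which Fcer1g took 44.3 and 113 CPM. Fcer1g was found in 4.39% and 11.8% of cells. The rest of the sum lay in members under the level tested, with Lyz2, Csf1r and Adgre1 at 0 UMIs. The 6 natural killer cell markers summed to 668 and 5457 CPM, of which Gzma took 475 and 5352 CPM. Klrb1c and Eomes, the other members tested, were higher in IL-2v by less than 2-fold (differences of 0.75 to 0.91). Ncr1, Klra8 and Klra4 were at 0 UMIs. The 6 dendritic cell markers measured summed to 306 and 209 CPM, of which the interferon-induced Bst2 took 258 and 142 CPM and H2-Ab1 47.6 and 66.6 CPM, with Flt3 and H2-Aa at 0 UMIs. The 5 gamma delta T cell markers summed to 136 and 106 CPM, of which Trdc took 117 and 82.6 CPM, and the 4 CD4 T cell markers to 52.6 and 86.1 CPM, of which Ctla4 took 33.6 and 58.7 CPM, with Foxp3 at 0 UMIs. The part of such cells in the differences was not tested.

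Because late granzyme positive cells made up different shares of the libraries, differences were also taken within cells of 1 kind, a choice made after seeing the data. The cells without a late granzyme UMI were 3336 in IL-2v and 917 in IL-2. Among them 116 of 5405 tested genes exceeded 2-fold upward and 107 downward, of which 84 and 71 were also so in all cells. Gzma still differed by -3.88 (236 and 3498 CPM), Ly6g by -6.52 (0.618 and 148 CPM) and Prf1 by -2.11 (40.0 and 176 CPM). Cd27 differed by 1.21 there. In cells with a late granzyme UMI, 1754 and 4020, Gzmd itself stood at 1042 and 4163 CPM. Whether an IL-2v and an IL-2 cell without a UMI are of 1 kind was not tested, since their median depths differ.

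**Figure D5:**
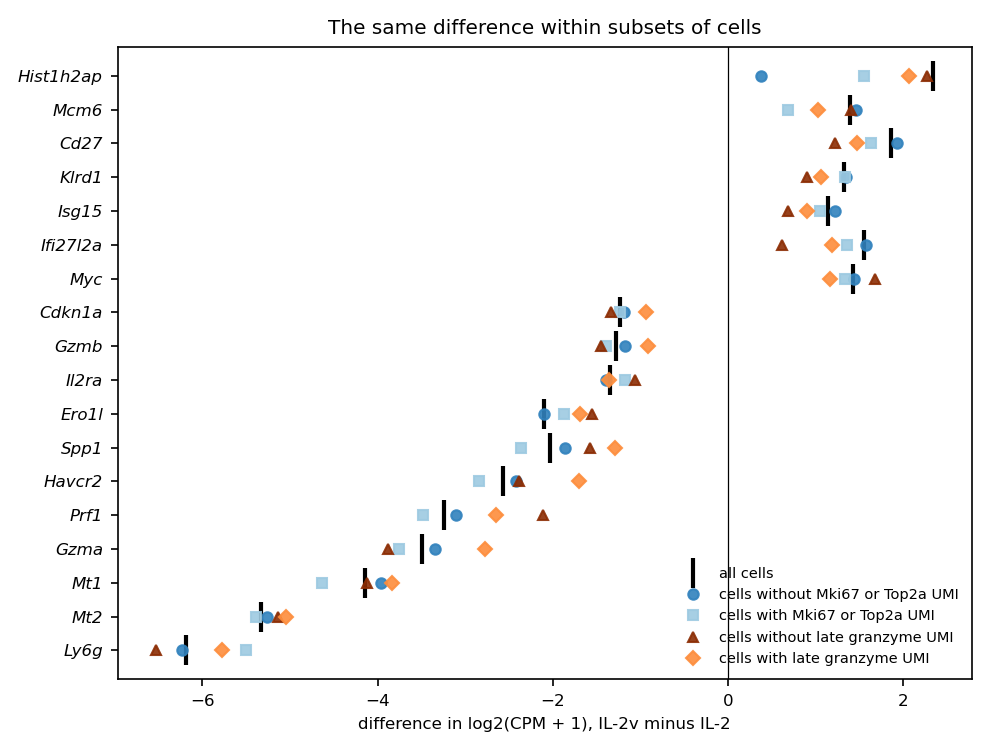
Difference in log2(CPM + 1), IL-2v minus IL-2 (x axis), of 18 genes (y axis) in all cells (black bars) and within 4 subsets of cells defined by a Mki67 or Top2a UMI or by a late granzyme UMI. Each gene keeps its sign in every subset. Hist1h2ap falls to 0.37 where Mki67 and Top2a were both undetected.

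The same contrast was measured in other libraries, which share none with this pair. Of the 145 genes higher here, 106 (73.1%) were also above 0 at 5 IU/mL on day 10, where 40.7% of all 5227 genes were, 113 (77.9%) at 50 IU/mL on day 5, against 64.6%, and 128 (88.3%) at 50 IU/mL on day 3, against 55.9%. Of the 113 lower genes, 104 (92.0%) were also below 0 at 5 IU/mL on day 10, against 59.3% of all genes, 88 (77.9%) at 50 IU/mL on day 5, against 35.4%, and 87 (77.0%) at 50 IU/mL on day 3, against 44.0%. The share stood nearer to that of all genes at 5 IU/mL on day 5, with 103 (71.0%) of the higher genes above 0, against 69.8%, and 48 (42.5%) of the lower genes below 0, against 29.998%. On day 3 at that dose 93 (64.1%) of the higher genes were above 0, against 53.7%, and 80 (70.8%) of the lower genes below it, against 46.1%. At 5 IU/mL on day 10, 6.78% of 5932 genes tested were 2-fold higher and 7.74% lower. There 25 of 40 replication genes were higher and none lower, and Gzma differed by -6.10 (15.3 and 1114 CPM). At 50 IU/mL Gzma differed by -1.94 on day 5 and by 1.40, the opposite direction, on day 3. Of replication genes tested at 50 IU/mL, 8 of 43 were 2-fold higher on day 5 and 0 of 45 on day 3. For mitosis genes the counts were 1 of 50 and 0 of 49, and no member of either list was 2-fold lower. At 50 IU/mL on day 5 (5.73% higher, 2.07% lower of 6227) and day 3 (1.22% higher, 2.1% lower of 6152), Mt1 differed by -3.93 and -4.48. The Mt1 gap was thus already there on day 3, with 31.1 CPM in IL-2v and 714 CPM in IL-2. The late granzymes were low then: Gzmd was at 0 and 1.15 CPM on day 3 and at 1.12 and 3.97 CPM on day 5. At 50 IU/mL on day 5, 11.4% (10.5 to 12.3) of IL-2v and 12.4% (11.2 to 13.7) of IL-2 cells of 2000 UMIs had a late granzyme UMI, and Gzmc, the 1 member tested, stood at 139 and 129 CPM. Gzme (0.232 and 2.46 CPM) and Gzmf (0.604 and 3.31 CPM) were, like Gzmd, already lower in IL-2v on day 5, at levels too low to be tested. Glycolysis and hypoxia genes had medians of -0.90 on day 3, with 13 of 29 tested members lower, -0.38 on day 5 and -0.78 at 5 IU/mL on day 10. At 5 IU/mL on day 5 (7.29% higher, 1.02% lower of 5676) they had the opposite direction, with a median of 1.71 and 23 of 28 tested members 2-fold higher in IL-2v, among them Ero1l (189 and 40.2 CPM) and Bnip3 (223 and 24.4 CPM). At 5 IU/mL on day 3 (0.0346% higher, 0.052% lower of 5774) the median was 0.05 and no member was past 2-fold. Prf1 differed by 0.47 on day 5 and Il2ra by 0.38, against -3.24 and -1.35 on day 10, differences between days that were not tested.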

How the data were processed

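Values are the UMI counts per gene and cell that the authors deposited, 1 table per library with 17516 genes and no header naming a program. Per the submitters' processing notes Cell Ranger, Seurat 4.0.1, Seurat 3.0.2 and the mouse build mm10 were used, with no role given, and the counting's use of strand is not given in the sources used here. Doublet removal is not stated either, and no doublet caller was run: leaving out cells above 2 times the median UMIs is an alternative. Barcodes under 1000 UMIs, under 500 genes or above 10% mitochondrial UMIs were dropped, which removed 0 cells of this pair. Counts were summed per library and divided by its total (CPM). Differences were taken in log2(CPM + 1) for genes with at least 20 CPM in either library, and 2-fold (1 on the log2 scale) was the size reported. Shares of cells were taken after thinning each cell to 2000 UMIs without replacement (seed 1), which left out shallower cells. TMM factors came from edgeR 4.0.16 in R 4.3.3, and no model was fitted. Other steps used Python 3.11.15, numpy 2.4.6 and scipy 1.17.1. Named genes are the 15 highest and 15 lowest differences among tested genes whose higher library reached 50 CPM, and members of the gene lists, some of which are not reported here. The contrast and the lists were chosen with earlier results of these data known. Positions, overlaps and shared runs of 50 bases are from GENCODE vM21 (GRCm38, the build also called mm10). On simulated libraries of this pair's size, 200 of 200 genes changed 3-fold or 4-fold were recovered in the right direction. Of the others among 4911 tested 0 were called, with counting noise alone. The changed genes were drawn from those at 2 times the 20 CPM filter or more. The run therefore does not show how genes near 20 CPM or changes near 2-fold fare, or variation between cultures.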

Additional observations from a re-analysis of the deposited data

Results flagged for a closer look

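At 5 IU/mL on day 10, 21 of the 126 named genes past 2-fold at 50 IU/mL had the opposite sign, each from 1 library against 1, and the difference between the doses was not tested. Of these, 2 were under the level tested at 5 IU/mL. For 13 the values at both doses lay at least 0.12 from 0 and from the median of all genes tested at that dose, on opposite sides; 0.12 is the shift between scalings at 50 IU/mL, and other scalings were not run at 5 IU/mL. Tespa1 differed by -1.26 at 5 IU/mL, with 74.0 CPM in IL-2v and 179 CPM in IL-2, and by 1.83 at 50 IU/mL. Cxcr3 differed by -1.13 and Klrk1 by -1.57 at 5 IU/mL, against 2.64 and 1.48 at 50 IU/mL. Under 2-fold at 5 IU/mL were Cd27 (-0.99), Klrd1 (-0.98), Cd226 (-0.82), Il10rb (-0.79), Irgm1 (-0.73), Gimap7 (-0.68), Ikzf3 (-0.60), Tnfsf8 (-0.36), BE692007 (-0.33) and Myc (-0.31), each at least 2-fold higher at 50 IU/mL. Il10rb shares 26.4% of its runs of 50 bases with other genes.

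Of 37 gene lists, 7 had medians on opposite sides by the same rule. The median of the killer lectin-like receptors was -1.57 at 5 IU/mL, where 2 of 3 tested members were 2-fold lower in IL-2v, and 1.32 at 50 IU/mL. The median of the interferon-stimulated genes was -0.54 at 5 IU/mL, with 2 of 27 tested members higher and 7 lower, and 0.74 at 50 IU/mL. Class I presentation genes had medians of -0.69 and 0.41, with 4 of 18 lower at 5 IU/mL, and GIMAP GTPases of -0.63 and 0.61. Other cytokine receptors had medians of -0.71 and 0.32, and T cell receptor and CD8 genes of -0.36 and 0.20. Amino acid, serine and ATF4 genes had medians of 0.62 and -0.13. The median of all genes tested was -0.15 at 5 IU/mL and 0.06 at 50 IU/mL.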

How the results depend on the processing

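The number of genes at least 2-fold higher was 145 of 5227 tested by the settings reported, and the number tested changed with the setting. It was 277 of 6823 with totals that left out ribosomal protein and mitochondrially encoded genes, and 71 of 5227 with a pseudocount of 10 CPM. With no expression filter it was 410 of 15233, and with a filter of 100 CPM 18 of 1259. In cells lacking Mki67 and Top2a UMIs it was 88 of 5077. In cells with a late granzyme UMI, a split added after seeing the data, it was 74 of 5056. The number lower, 113 of 5227, was 292 of 15233 with no expression filter and 43 of 1259 with a filter of 100 CPM. It stayed between 77 and 138 under the other settings. The median of all genes was -0.042 with TMM, -0.050 with median of ratios and 0.18 with totals without ribosomal protein and mitochondrially encoded genes. The share of cells with a Mki67 or Top2a UMI was 12.2% in IL-2v and 5.25% in IL-2 after thinning to 1000 UMIs, 25.01% and 13.4% without thinning, 42.9% and 26.4% by at least 3 UMIs of the replication and mitosis lists, and 7.16% in IL-2 with at most 5% mitochondrial UMIs. Of 126 named genes past 2-fold, 3 changed sign, each in cells lacking Mki67 and Top2a UMIs: Cenpa (-0.027), Nusap1 (-0.19) and Hist1h3c (-0.40), and the cause was not tested. More fell below 2-fold without changing sign. These were 50 in cells with a Mki67 or Top2a UMI, 34 in cells lacking both, and 38 with a pseudocount of 10 CPM. In cells without and with a late granzyme UMI they were 36 and 32. Under every other setting they were at most 11. The settings were otherwise TMM, median of ratios, the mean of single-cell CPM, all barcodes, at most 5% mitochondrial UMIs, no cells above 2 times the median UMIs, and cells with or without a Mki67 or Top2a or a late granzyme UMI. Leaving out a replicate was not possible with 1 library per condition. No paired analysis was possible because each condition has 1 library. Depth limits genes under 20 CPM, and culture, cytokine and library cannot be told apart with 1 library each.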
